A study of Mus musculus with 18 samples.

Results

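The 9 genes described here are a selection of protein-coding genes near mir-146a on mouse chromosome 11. The question was whether deleting miR-146a, or rewriting its 3′ part, changed the RNA of these genes. The members, Pttg1, Slu7, C1qtnf2, Ccnjl, Fabp6, Pwwp2a, Ttc1, Ublcp1 and Atp10b, were listed by name and found as 9 of the 21734 rows of the deposited table of protein-coding genes. The list is not complete, since Adra1b (0.527 Mb away) and Il12b (1.03 Mb), among others, begin nearer to mir-146a than Ublcp1 (1.10 Mb). 5 of them (Pttg1, Slu7, Pwwp2a, Ttc1 and Ublcp1) had enough reads to be tested, and the other 4 were at or near 0 in every library. Of the 5 tested, only Ublcp1 changed with genotype by the test used. Its RNA was lower in resting cells without miR-146a than in resting wild type, a call lost when only the libraries compared were fitted. After LPS its difference from wild type did not pass the test in the main fit. It passed in every other setting that kept all the libraries compared, and in none that left out a single library of these. In cells with the rewritten miR-146a, Ublcp1 did not differ from wild type by the test in either state.

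Reads were counted in 18 libraries of bone marrow-derived macrophages (BMDMs), which are macrophages grown from marrow in the growth factor M-CSF. The marrow came from mice aged 6 to 7 months of a 129/B6 mix, 3 of each genotype, and was cultured for 8 to 9 days with 10 ng/ml M-CSF. The paper's methods give a younger age for its proteome samples, which it describes as split from the same replicates. The genotypes were miR-146 wild type (WT), knockout (KO) and a non-seed swap (3′F), whose miR-146a keeps its 5′ sequence and carries other bases in its 3′ part. Cultures of each genotype received fresh medium alone (resting) or fresh medium with 1 ng/ml of LPS, a bacterial cell wall component that activates macrophages, for 16 hours, which gave 6 groups of 3 libraries. By the study's methods, the KO and 3′F alleles were made separately by gene targeting in V6.5 embryonic stem cells, the selection cassette was removed with Cre recombinase, the lines were backcrossed for a few generations to C57BL6/J, and WT mice came from both lines. Chromosome 11 DNA carried along from the stem cells, any trace left by the targeting, and the loss of the miRNA therefore cannot be told apart as sources of a difference in a neighbouring gene. The product of mir-146a was not analysed here, since the table lists protein-coding genes, so the knockout itself was not checked.

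MicroRNAs are short RNAs that lower the stability and translation of mRNAs, which they find mainly by pairing of their seed, the bases near the 5′ end, with sites in 3′ UTRs. miR-146a is induced by LPS in macrophages and restrains signalling from Toll-like receptors. A gene next to a miRNA can be affected by a targeted allele in cis, through shared regulatory DNA, as well as through the missing RNA, and neighbours are therefore usually checked beside a knockout.

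The sequences below show the miRNA of the locus, its family member and the change in 3′F. RefSeq places the mir-146a hairpin at chr11:43374397-43374461 on the minus strand of GRCm38, the build mm10 of the deposited counts, and the mature strand at chr11:43374435-43374456. The seed, bases 2 to 8, is in capitals and is shared by both family members.
miR-146a-5p: uGAGAACUgaauuccauggguu
miR-146b-5p: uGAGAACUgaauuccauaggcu
The study's synthetic mimics of the WT and 3′F strands, shown without their DNA overhang, differed at 8 of 20 positions, all between positions 13 and 20 counted from the 5′ end, and their seeds were identical. Capitals mark the differing bases.
WT mimic: ugagaacugaauUCCAUGGG
3′F mimic: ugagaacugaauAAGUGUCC

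The longest annotated 3′ UTR of 3 of the 9 members held a match of at least 6 bases, to bases 2 to 7 of the miRNA. In 2 of the 9 a match had at least 7 bases, either to bases 2 to 8 or to bases 2 to 7 with an A opposite base 1. Over 20773 genes with an annotated 3′ UTR, 29.7% and 18.2% held such matches. The sites of the tested members are shown in GRCm38 with the matching bases in capitals, at chr11:44455415-44455437 and chr11:44455377-44455399 on the minus strand for Ublcp1, and at chr11:43447765-43447787 on the plus strand for Slu7.
Ublcp1, 7 bases: caaacaaacaaaaAGTTCTCttc
Ublcp1, 6 bases: actcttgaagaattGTTCTCtgg
Slu7, 6 bases: cggaggaacaggttGTTCTCtga
Atp10b, which was not tested, held 2 matches of 7 bases, each to bases 2 to 7 with an A opposite base 1. Pttg1, C1qtnf2, Ccnjl, Fabp6, Pwwp2a and Ttc1 held none. A match is a description of the letters and does not show that the site is used.

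The libraries held 4071084 to 19818043 counts. Resting KO replicate 3 and resting 3′F replicate 3 stood apart from the rest of their groups. On the first principal component, with 61.8% of the variance, resting KO replicate 3 lay at 19.7, inside the range of the LPS libraries (17.4 to 70.6), whereas resting KO replicates 1 and 2 lay at -28.2 and -31.5. The counts do not settle whether the library labelled resting KO replicate 3 came from a culture without LPS, so every resting KO value and the KO response to LPS carry that doubt. Il12b, which had 30 to 142 reads in the 9 LPS libraries, had 0 in that library. Resting 3′F replicate 3, the shallowest library, lay at 50.2 on the second component, whereas the other 17 libraries ranged from -33.1 to 17.9. Values are therefore given with and without these libraries where they matter. All 8 macrophage markers examined were present in every library (Lyz2 at 26451 to 75141 counts per 1000000 counts of the library, CPM), and Cd3e, which defines T cells, was at 0 in all 18. Of the other T cell markers, Cd4 was above 0 in every library (0.449 to 11.2 CPM), and Cd3d, Cd3g and Cd8a had reads in 2 to 3 libraries. The 7 neutrophil and progenitor markers, among which S100a8 (6.70 to 48.3) and S100a9 (2.41 to 16.8) were present in every library and Ly6g was at 0 in 14, summed to 13.6 to 22.7 CPM in resting WT. They summed to 15.0, 25.8 and 53.3 in resting KO replicates 1 to 3 and to 12.7, 25.9 and 66.0 in resting 3′F, so that the sums were highest in both libraries that stood apart. After LPS they summed to 31.0 to 38.9 in WT, 38.4 to 65.4 in KO and 27.4 to 32.1 in 3′F. B cell, dendritic cell, stromal and erythroid markers summed to at most 3.45 CPM a list. The summed level of the 8 macrophage markers was 31759 to 47820 CPM in resting WT, 60497 to 62417 in resting KO and 42635 to 62056 in resting 3′F. After LPS it was 45526 to 59915 in WT, 71164 to 87877 in KO and 50456 to 60384 in 3′F. Lyz2 (median 47399 CPM, beside 2783 for Csf1r, the next highest) carried most of these sums. The part of these marker levels in the results below was not tested. In bulk RNA, fewer cells that express a gene and less RNA per cell cannot be told apart.

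Per length of exon, Ttc1 and Slu7 had the highest levels of the 9. CPM per kilobase of exon (RPKM) ran over the 18 libraries from 20.7 to 39.4 for Ttc1, a tetratricopeptide repeat protein, and from 18.1 to 23.0 for Slu7, a splicing factor. The ranges of these 2 genes overlapped, and those of the next 2 did as well. The RPKM of Pttg1 ran from 3.46 to 20.6 with a median of 8.84, and that of Ublcp1 from 3.44 to 12.8 with a median of 8.09. Pwwp2a, which encodes a chromatin protein that binds the histone variant H2A.Z, followed at 2.80 to 4.60.

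The remaining 4 members had almost no reads. Fabp6, encoding the bile acid carrier of the ileum, had 0 reads in all 18 libraries, and 3 counts, the limit that a count of 0 allows, correspond to 0.164 to 0.699 CPM in these libraries. C1qtnf2, encoding a secreted protein of the C1q and TNF related family, had 1 read in each of 2 libraries, resting 3′F replicate 1 and LPS 3′F replicate 1. Ccnjl, a cyclin J-like gene, had 1 read in LPS KO replicate 1 and 1 in resting 3′F replicate 3. Atp10b, encoding a lipid flippase and lying on the other side of the hairpin from the rest, had 6 reads in all, with at most 2 in any library. No library of any group exceeded 0.233 CPM for any of the 4. A difference among such counts was not detectable at this depth.

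Ublcp1, which encodes a nuclear phosphatase that acts on the proteasome, was lower in KO than in WT. It lies at chr11:44454571-44470498 on the minus strand, and its start, 1.10 Mb from the hairpin, is the farthest of the 9. In resting cells, Ublcp1 stood at 16.0, 15.0 and 18.2 CPM in WT replicates 1 to 3, at 7.35, 7.19 and 11.9 in KO, and at 17.2, 16.0 and 21.9 in 3′F. All 3 KO libraries were below all WT and all 3′F libraries, and the WT and 3′F libraries overlapped. The highest resting KO value came from replicate 3, the library that stood apart. In LPS-treated cells the values were 23.3, 20.3 and 26.7 in WT, 13.4, 16.6 and 15.8 in KO, and 22.9, 23.1 and 26.8 in 3′F. Again the 3 KO libraries were the lowest, with no overlap with WT or 3′F.

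**Figure D1:**
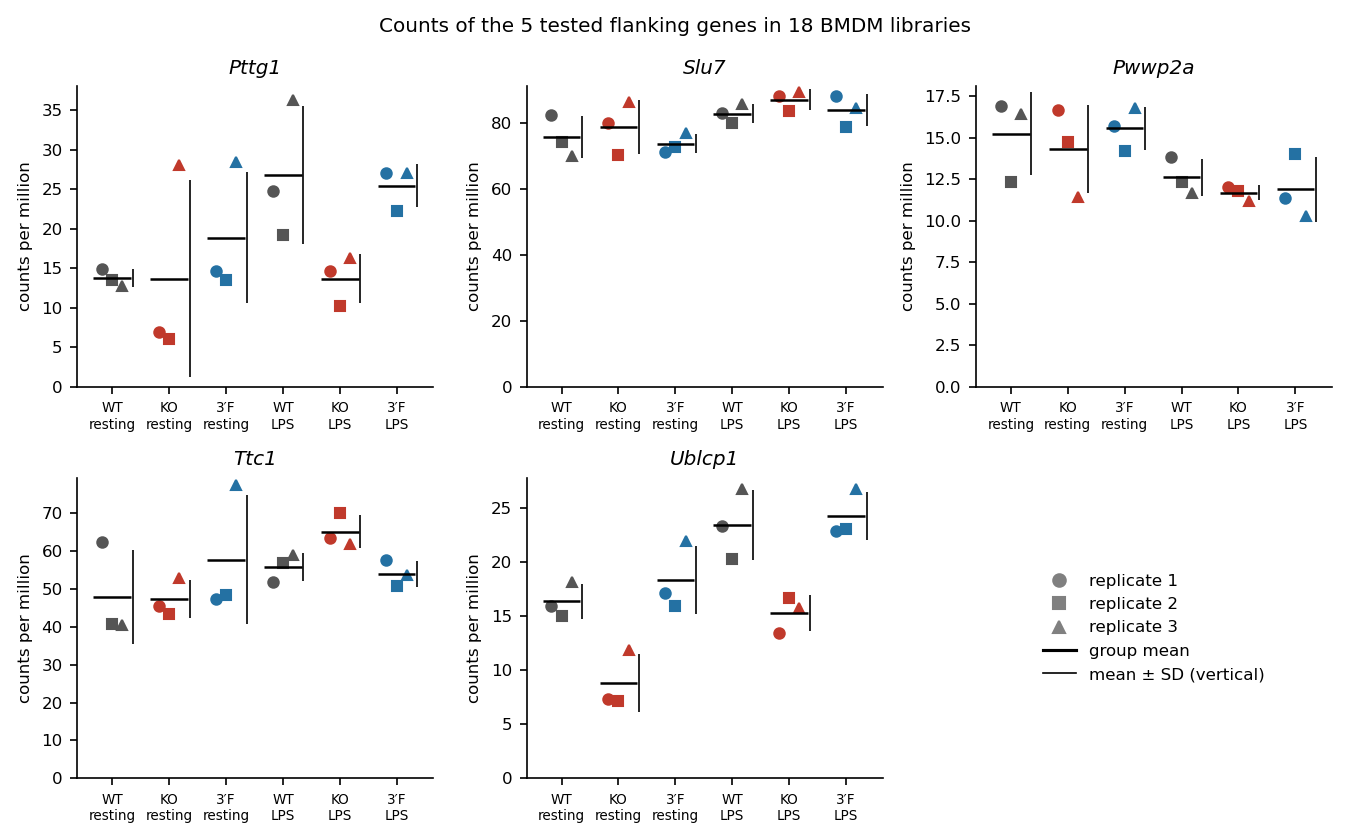
CPM (y axis, from 0) of the 5 tested genes in each of the 18 libraries, by group on the x axis. Symbols mark the replicate number, horizontal lines group means and vertical lines the mean ± SD (n = 3). For Ublcp1 the 3 KO libraries lie below all WT and 3′F libraries in both states. For Pttg1 the replicate 3 libraries of resting KO (28.1) and resting 3′F (28.4) lie far above the other libraries of their groups.

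The log2 difference of Ublcp1 between resting KO and WT was -0.91 ± 0.19 (SE, n = 3 and 3, edgeR quasi-likelihood test, adjusted p = 0.00728), a level 0.532 times that of WT with a 95% interval of 0.404 to 0.700. Ublcp1 was thus the 1 member called of 5 tested in this comparison, beside 9.4% of all 11357 genes tested. It was also the 1 member of 5 whose groups did not overlap, beside 26.8% of all genes. Without resting KO replicate 3 the difference was -1.17 (adjusted p = 0.00132), and without that library and resting 3′F replicate 3 it was -1.14 (adjusted p = 0.000401), beside 7.18% and 14.7% of all genes called. The call was lost when only the 6 libraries compared were fitted (-0.92, adjusted p = 0.0763), a fit that called 3.35% of all genes.

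After LPS, KO minus WT came to -0.62 ± 0.18 for Ublcp1 (adjusted p = 0.0583), which did not pass the threshold of 0.05, and 0 of 5 members were called, beside 4.79% of all genes. By DESeq2 the adjusted p was 0.015, and with replicate number as a block it was 0.0194, beside 7.72% and 5.1% of all genes called. The genotypes are different mice, and the labels link no replicate number across them. Ublcp1 also passed with upper-quartile scaling (adjusted p = 0.0297) and without the filter on low counts (0.0431). It passed too in limma-voom (0.000643) and in the compared groups alone (0.0274). The shares of all genes called there were 5.19%, 2.78%, 15.6% and 9.16%. Of the settings that kept all the LPS libraries compared, only the main fit missed the threshold. Leaving out any single library of these took the adjusted p to between 0.0926 and 0.204. The size of the difference moved little, from -0.61 to -0.68 over the fits of all libraries. 3 of 5 members (Pttg1, Ttc1 and Ublcp1) had groups that did not overlap, beside 32.9% of all genes. At an unadjusted p under 0.05, Pttg1 and Ublcp1 passed. No share of all genes was taken at that looser threshold, so this count has no background to be read against.

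Against 3′F instead of WT, the same KO libraries gave a like picture for Ublcp1. The log2 difference between KO and 3′F was -1.06 ± 0.19 in resting cells (adjusted p = 0.00456) and -0.66 ± 0.18 after LPS (adjusted p = 0.0488). It was the 1 member called of 5 in each state, beside 12.9% and 3.88% of all genes. Leaving out any 1 of the 6 LPS libraries compared took the adjusted p in LPS cells above 0.05, to between 0.0842 and 0.187, whereas the difference stayed between -0.58 and -0.73. These comparisons use the KO libraries of the comparison with WT and are not independent of it.

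Between 3′F and WT, none of the 5 members was called in either state, beside 0% of all genes in resting cells and 0.00881% after LPS. For Ublcp1 the log2 difference was 0.15 in resting cells, with a 95% interval of -0.24 to 0.53, and 0.05 after LPS, with an interval of -0.33 to 0.42. The resting interval leaves out the KO to WT difference of -0.91, and the LPS interval that of -0.62. For Slu7 the intervals were the narrowest, -0.24 to 0.16 in resting cells and -0.18 to 0.21 after LPS. No member had 3′F and WT groups without overlap in either state, beside 7.11% and 7.87% of all genes. No 3′F to WT difference of the 5 members had an unadjusted p under 0.05, and the smallest was 0.183, for Ttc1 in resting cells.

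**Figure D2:**
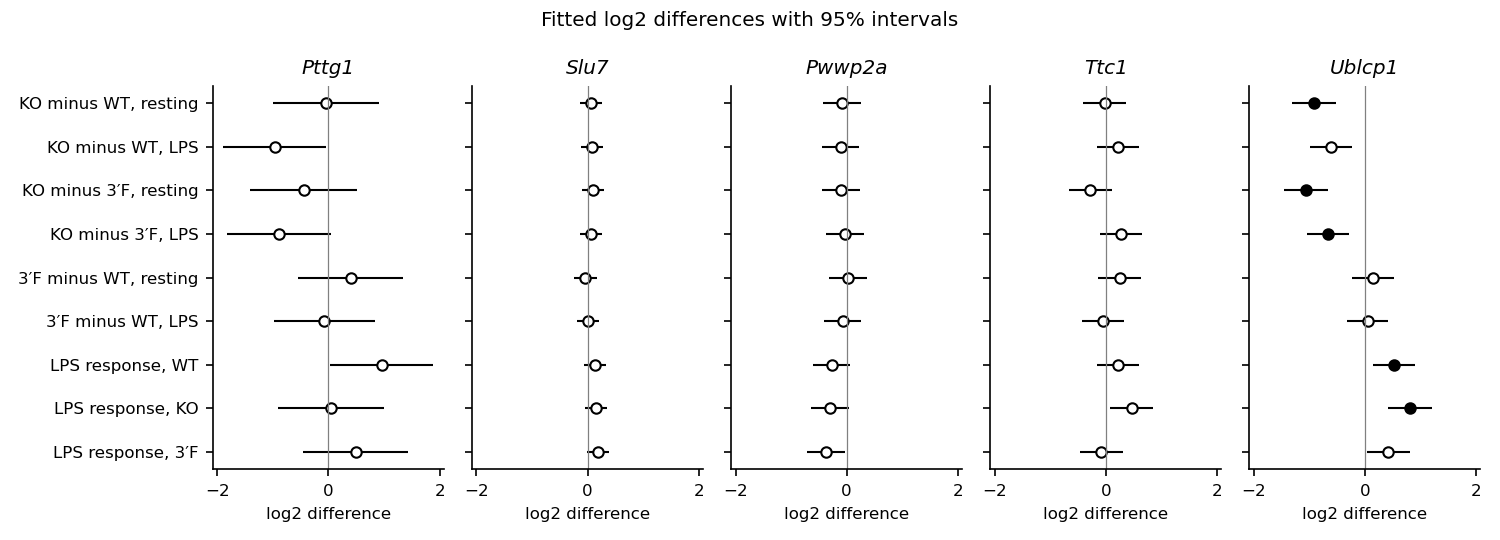
Fitted log2 differences (x axis) with 95% intervals for the 5 tested genes, with the comparisons on the y axis. Filled points mark an adjusted p under 0.05. For Ublcp1, resting KO is below WT by -0.91 and below 3′F by -1.06, and both 3′F to WT intervals include 0, as do all genotype intervals of Slu7, Pwwp2a and Ttc1.

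Pttg1 is the nearest member, with its start 51.8 kb from the hairpin at chr11:43420250-43426251 on the minus strand. It encodes securin, which holds separase inactive until the sister chromatids part at anaphase. In resting cells, Pttg1 stood at 15.0, 13.5 and 12.8 CPM in WT, at 6.98, 6.11 and 28.1 in KO and at 14.7, 13.5 and 28.4 in 3′F. KO replicates 1 and 2 were below every WT library and KO replicate 3 above every WT library. Resting KO minus WT came to -0.05 ± 0.45 for Pttg1 (adjusted p = 0.971). Without resting KO replicate 3 it was -1.07 (adjusted p = 0.0537), and without that library and resting 3′F replicate 3, an alternative chosen after seeing the data, it was -1.04 and passed the test (adjusted p = 0.0126), beside 14.7% of all genes. In limma-voom with sample weights, which counts libraries that vary more for less, it was -0.94 (adjusted p = 0.0141), beside 19.9% of all genes. This value therefore rested on 1 library. Resting KO minus 3′F came to -0.44 for Pttg1 (adjusted p = 0.524). It was -1.45 without resting KO replicate 3 (adjusted p = 0.016), beside 8.19% of all genes, and -0.09 without resting 3′F replicate 3 (adjusted p = 0.934).

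After LPS, Pttg1 stood at 24.8, 19.2 and 36.3 CPM in WT, at 14.7, 10.2 and 16.3 in KO and at 27.0, 22.3 and 27.1 in 3′F. The 3 KO libraries were below all WT and all 3′F libraries. The difference did not pass the test, at -0.96 ± 0.44 against WT (adjusted p = 0.253) and -0.89 ± 0.44 against 3′F (adjusted p = 0.326). In limma-voom Pttg1 passed in both (adjusted p = 0.0042 and 0.00498), beside 15.6% and 16.2% of all genes by that tool. In the edgeR fit of the compared groups alone it passed against 3′F (adjusted p = 0.00687) and not against WT (adjusted p = 0.052). The shares of all genes called there were 14.7% and 9.16%. Between KO and 3′F, the groups of 1 of the 5 members (Ublcp1) did not overlap in resting cells and those of 3 (Pttg1, Ttc1 and Ublcp1) did not after LPS, beside 29.7% and 34.3% of all genes.

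Securin acts together with a larger set of genes of anaphase control, of which 30 listed by role were in the table and all 30 were tested. In resting KO against WT, 17 of the 30 were lower and 0 higher, beside 4.27% of all genes lower, with a median log2 difference of -0.92 beside 0.02 over all genes. They included Ccnb1 (cyclin B1, at -2.17, adjusted p = 0.00271), Cdc20 (an activator of the anaphase-promoting complex, at -2.00, adjusted p = 0.00346) and Espl1 (separase, the partner of securin, at -1.02, adjusted p = 0.037). The resting count was 17 without both libraries that stood apart and 13 to 17 without each library. After LPS, 4 of the 30 were lower in KO than in WT, beside 2.9% of all genes lower, and this count ran from 0 (without LPS WT replicate 2 or LPS KO replicate 2) to 9 (without LPS WT replicate 1), with 1 without any of the other 3 libraries compared, and was 11 with DESeq2. Between 3′F and WT 0 were called in either state.

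Pttg1 did not follow the summed level of the list in resting KO replicate 3. A sum gives most weight to the genes with the most counts. It therefore does not show whether Pttg1 followed the genes called lower. The summed level of the 30 genes was 1993 to 2190 CPM in resting WT and 1607 to 1681 in resting KO, and its lowest resting KO value, 1607, belonged to replicate 3, in which Pttg1 was highest of the group at 28.1. In WT, LPS moved the sum to 1665 to 1867, below every resting WT library, while Pttg1 was higher in all 3 LPS libraries than in any resting one. Resting 3′F replicate 3 had the highest sum of all libraries, 2285.

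**Figure D3:**
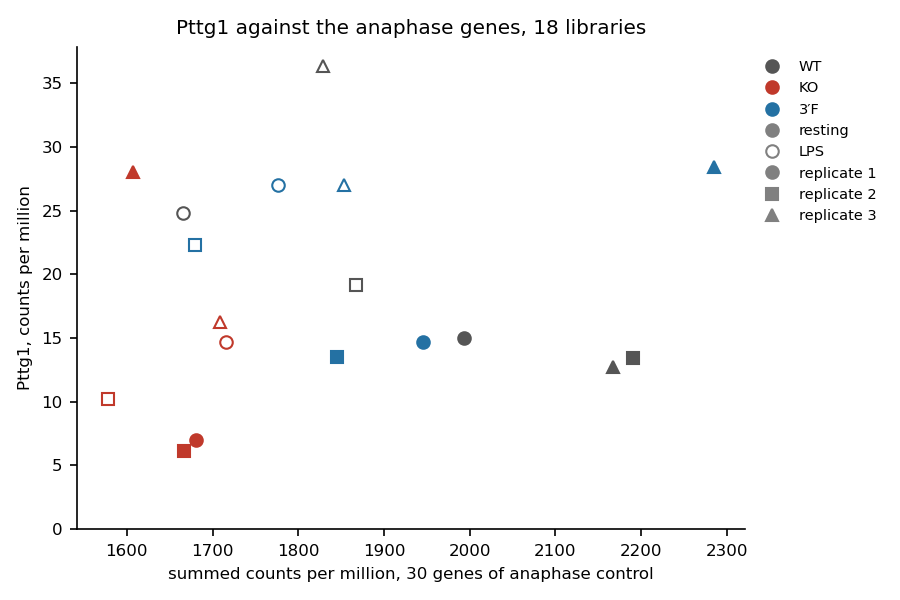
Pttg1 (y axis, CPM, from 0) against the summed CPM of 30 other genes of anaphase control (x axis, which does not start at 0) in 18 libraries. Filled symbols are resting and open symbols LPS, with genotype by colour and replicate by shape. Resting KO replicate 3 has a low sum (1607) and a high Pttg1 (28.1), apart from resting KO replicates 1 and 2.

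Slu7 shares the interval beside Pttg1, at chr11:43433744-43447981 on the plus strand with its start 59.3 kb from the hairpin, and was the steadiest member. It encodes a splicing factor needed for the choice of the 3′ splice site in the second catalytic step. In resting cells, Slu7 stood at 82.5, 74.4 and 70.1 CPM in WT, 80.0, 70.2 and 86.3 in KO and 71.3, 72.9 and 76.9 in 3′F, and the groups overlapped. After LPS it stood at 83.0, 79.9 and 85.7 in WT, 88.3, 83.5 and 89.4 in KO and 88.3, 78.7 and 84.5 in 3′F, again with overlap. The KO to WT difference was 0.06 ± 0.09 in resting cells and 0.07 ± 0.09 after LPS, with 95% intervals of -0.14 to 0.26 and -0.13 to 0.27. A rise of Slu7 above 1.21 times WT and a fall below 0.907 times WT thus lay outside both intervals.

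Of 7 other factors of the second splicing step, 0 were called between KO and WT in resting cells or after LPS, beside 9.4% and 4.79% of all genes. Between 3′F and WT 0 were called as well, beside 0% and 0.00881%. In resting KO against 3′F, 1 of the 7 was higher, Dhx38, a helicase of the spliceosome (0.45 ± 0.14, adjusted p = 0.0457). This share is near the 12.9% of all genes called there. Both groups hold a library that stood apart, and the value of Dhx38 without them is not given. The 7 genes summed to 849, 822 and 1034 CPM in resting KO replicates 1 to 3 and to 848, 799 and 653 in resting 3′F. Dhx38 rose with LPS in all 3 genotypes, by 0.73 in WT, 0.65 in KO and 0.89 in 3′F on the log2 scale.

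Pwwp2a lies at chr11:43681998-43721491 on the plus strand, with its start 307.5 kb from the hairpin. Resting values of Pwwp2a were 16.9, 12.3 and 16.4 CPM in WT, 16.7, 14.8 and 11.4 in KO and 15.7, 14.2 and 16.8 in 3′F. LPS values of Pwwp2a were 13.8, 12.3 and 11.7 in WT, 12.0, 11.8 and 11.2 in KO and 11.4, 14.0 and 10.3 in 3′F. The genotypes overlapped in both states, and the KO to WT differences were -0.08 ± 0.16 and -0.11 ± 0.16 (adjusted p = 0.821 and 0.793).

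Ttc1 lies at chr11:43729512-43748008 on the minus strand, with its start 373.5 kb from the hairpin. In resting cells, Ttc1 stood at 62.3, 40.8 and 40.6 CPM in WT, 45.5, 43.5 and 53.0 in KO and 47.5, 48.5 and 77.4 in 3′F. WT replicate 1 and 3′F replicate 3 were high within their groups, and KO lay inside the WT range. After LPS, Ttc1 stood at 51.8, 56.9 and 59.0 in WT, 63.5, 70.1 and 61.9 in KO and 57.6, 50.8 and 53.6 in 3′F, with the 3 KO libraries above all others. The difference between KO and WT was -0.02 ± 0.18 in resting cells and 0.22 ± 0.18 after LPS, and neither passed the test (adjusted p = 0.968 and 0.591).

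LPS raised Ublcp1 in WT and KO, and the other tested members were not called. In WT, Ublcp1 rose by 0.52 ± 0.18 on the log2 scale (adjusted p = 0.0385), and in KO by 0.81 ± 0.19 (adjusted p = 0.00392), and all 3 LPS libraries were above all resting ones in each. In 3′F the LPS libraries were also all higher, but the difference of 0.42 ± 0.18 did not pass (adjusted p = 0.0876). With 3 mice a genotype, resting and LPS cultures came from the same mice, and the fit took their libraries as independent. With genotype and replicate number taken as the mouse, which the labels do not state, the differences of Ublcp1 were 0.51 in WT (adjusted p = 0.0247), 0.83 in KO (0.00298) and 0.42 in 3′F (0.0559). Within same-numbered 3′F libraries LPS was higher in each of the 3 pairs, by 0.42, 0.53 and 0.29. So 1, 1 and 0 of 5 members were called in WT, KO and 3′F, beside 28.5%, 26.9% and 31.2% of all genes. The call in WT was lost with upper-quartile scaling (adjusted p = 0.0981), without the filter on low counts (0.0674) and without resting WT replicate 1 or 2 or LPS WT replicate 1 or 3 (0.0834 to 0.161). Even after LPS, KO Ublcp1 (13.4 to 16.6 CPM) reached only the range of resting WT (15.0 to 18.2).

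Pttg1 was higher after LPS in WT by 0.96 ± 0.44 without passing the test (adjusted p = 0.115), and its LPS and resting WT libraries did not overlap. In KO the Pttg1 difference was 0.04 ± 0.45, which became 1.06 (adjusted p = 0.0157) without resting KO replicate 3. Without that library, 4 of 5 members passed in KO: Pttg1 and Ublcp1 (1.07) higher, Ttc1 higher by 0.55 (adjusted p = 0.0437) and Pwwp2a lower by -0.43 (adjusted p = 0.0444). The share of all genes called rose with them, from 26.9% to 35.5%. With the library, Ttc1 had a difference of 0.46 ± 0.18 (adjusted p = 0.0697) and Pwwp2a one of -0.30 ± 0.16 (adjusted p = 0.185). Without resting 3′F replicate 3, Ublcp1 passed in 3′F (0.51, adjusted p = 0.0495), beside 27.8% of all genes. LPS and resting groups did not overlap for 2, 2 and 3 of the 5 members in WT, KO and 3′F, beside 47.5%, 42.7% and 45.2% of all genes.

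Whether the response to LPS differed between genotypes was tested as an interaction, and 0 of 5 members passed for KO against WT or for 3′F against WT, beside 0.00881% and 0% of all genes. No member had an unadjusted p under 0.05 in these 2 tests. For Ublcp1 the response in KO minus that in WT was 0.29 ± 0.26 (adjusted p = 1), with a 95% interval of -0.25 to 0.84. For Pttg1 it was -0.92 ± 0.63, and 0.10 without resting KO replicate 3, so its sign rested on that library.

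The stretch around the members was examined out to 5 Mb on either side of the hairpin, which held 34 further genes of the table, 15 of them tested. None of the further genes with a start within 1 Mb was tested, so the members Pttg1, Slu7, Pwwp2a and Ttc1 were the only tested genes within that distance. In resting KO against WT, 2 of the 15 were called, beside 9.4% of all genes, and after LPS 4 of the 15, beside 4.79%. Timd4 is 1 of them in both states, and it reached the count minimum in 5 of the 6 KO libraries and 0 of the 6 WT libraries, so that it was tested because it was high in KO. Leaving it out, 1 and 3 of the other 14 were called, and the resting share is near that of all genes. Between 3′F and WT 0 were called in either state. The median log2 difference of the 15 was -0.06 in resting KO against WT, beside 0.02 over all genes, and -0.03 after LPS, beside 0.01.

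Hmmr, the gene of a hyaluronan receptor and spindle protein of dividing cells, lies 2.64 Mb from the hairpin on the side of Atp10b. It was lower in KO in both states, by -2.24 ± 0.38 in resting cells (adjusted p = 0.00271) and by -1.51 ± 0.38 after LPS (adjusted p = 0.0322). Havcr2, encoding the immune receptor TIM-3, lies 3.08 Mb away on the side of Ublcp1, and was lower in KO after LPS by -1.59 ± 0.15 (adjusted p = 2.79e-05). The call of Hmmr after LPS was lost without LPS WT replicate 2 or 3 or any 1 of the LPS KO libraries (adjusted p = 0.0564 to 0.182), and those of Hmmr in resting cells and of Havcr2 after LPS were kept without any 1 library. In LPS-treated cells Havcr2 stood at 6.44 to 7.70 CPM in KO and 18.5 to 26.5 in WT.

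Rnf145, which encodes a ubiquitin ligase of the endoplasmic reticulum, begins 1.14 Mb from the hairpin and is the tested gene next to Ublcp1 on its far side. Unlike Ublcp1, it was higher in KO after LPS, by 0.45 ± 0.11 (adjusted p = 0.0281, but 0.0597 without the filter on low counts and 0.0513 to 0.159 without LPS WT replicate 1 or 2 or any 1 of the LPS KO libraries), and in resting cells the difference was -0.04 ± 0.11 (adjusted p = 0.886). Il12b, encoding the subunit shared by IL-12 and IL-23 and starting 1.03 Mb away, lies on the near side of Ublcp1. It was at 0 in all 3 resting WT libraries, and after LPS it ranged from 2.09 to 9.69 CPM in WT and 2.39 to 3.65 in KO, with overlap.

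Timd4, encoding a receptor for phosphatidylserine on macrophages, lies 3.44 Mb away. It had 0, 0 and 1 reads in resting WT and 17, 7 and 36 in resting KO, and 6, 4 and 1 reads in LPS WT and 144, 104 and 84 in LPS KO. The 3 KO libraries were above all WT libraries in both states, which is given as a description with no test, since the filter let Timd4 in through KO, and no fold is given against counts this low. Resting 3′F libraries had 0.0579 to 1.63 CPM of Timd4 and overlapped resting KO (0.535 to 4.04). LPS 3′F libraries had 0.146 to 0.769 CPM, below LPS KO (5.99 to 9.91). Against 3′F, Hmmr, Havcr2 and Nudcd2, which encodes a chaperone-associated protein, were lower in resting KO, and Hmmr and Havcr2 were lower and Rnf145 higher in LPS KO, beside 12.9% and 3.88% of all genes called. Of these calls against 3′F, that of Havcr2 after LPS was kept under every alternative run, whereas those of Hmmr and Rnf145 after LPS were lost without some single libraries. All 3 calls in resting cells were lost without both libraries that stood apart (Hmmr at -1.35, adjusted p = 0.0635, Havcr2 at -0.32, adjusted p = 0.247, and Nudcd2 at -0.15, adjusted p = 0.45) and in the compared groups alone, and those of Havcr2 and Nudcd2 also without the filter on low counts and under the replicate block.

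**Figure D4:**
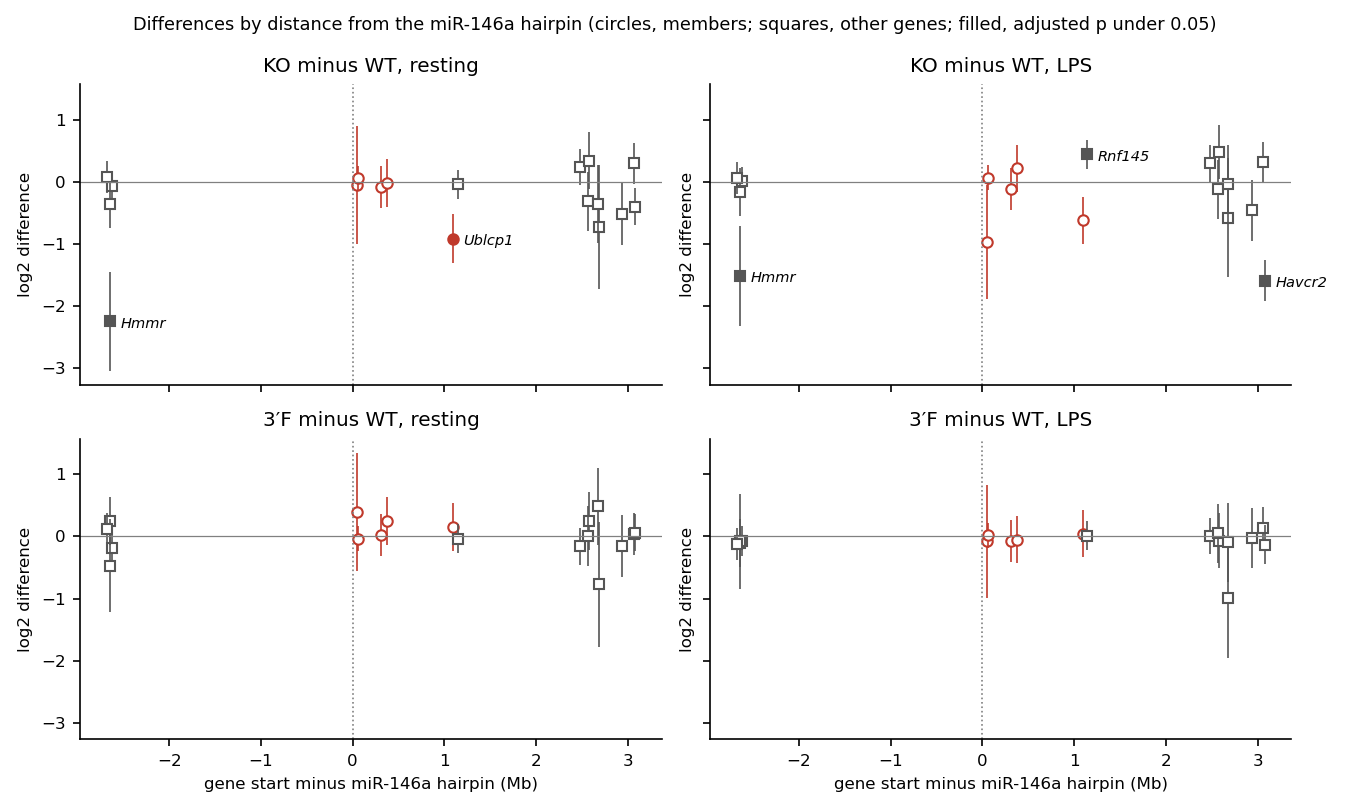
Fitted log2 difference (y axis) against the distance of a gene's start from the mir-146a hairpin in Mb (x axis), for the 5 tested members (circles) and 13 further tested genes (squares), with 95% intervals. Filled symbols mark an adjusted p under 0.05, and Il12b and Timd4 are left out because they had almost no reads in resting WT. The members within 0.5 Mb are not called in any panel, Ublcp1 is called at -0.91 in resting KO, and no gene is called in 3′F.

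Across the 18 libraries, the genes most like each member by Pearson's r of log2 CPM were Trim34a (0.92) and Bid (0.91) for Ublcp1, Rab19 (0.91) and Sfxn2 (0.90) for Pttg1, Golga2 (0.88) and Acss2 (0.87) for Slu7, Scai (0.88) and Kxd1 (0.86) for Pwwp2a and Ubxn1 (0.95) and Psmd6 (0.95) for Ttc1. Among the members, Pttg1 and Ublcp1 were most alike (r = 0.81), although Slu7, Pwwp2a and Ttc1 lie between them. Neighbours Pttg1 and Slu7 had an r of 0.49, and Slu7 and Pwwp2a one of -0.65. These values describe libraries that share genotype, LPS and depth and carry no test.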

How the data were processed

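Per the labels, 18 directional, rRNA-depleted libraries were sequenced. The authors trimmed reads (cutadapt 1.8.3), aligned them to mm10 (HISAT2 2.1.0), counted them per gene by strand on the Gencode M15 annotation (featureCounts 1.5.3), and deposited whole-number counts for 21734 protein-coding genes with exon lengths. Here positions came from Gencode M21 of the same build. Counts were analysed in R 4.3.3: filterByExpr of edgeR 4.0.16 kept 11357 genes, libraries were scaled by TMM (0.812 to 1.15), and all 18 entered 1 quasi-likelihood fit with a coefficient per group. Two-sided p-values received the Benjamini-Hochberg adjustment across the whole tested table, with 0.05 as the threshold of a call. CPM use the TMM-scaled library size, and RPKM divide them by exon length. With 3 libraries against 3 an exact permutation test cannot go below p = 0.1. P-values measure the spread between the cultures of 3 mice a genotype, the mice shared by resting and LPS cultures were not modelled except under the block, and floors cover counting error only. Replicates differed by more than sampling noise in a chi-square test of their counts.

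The members, the wider window of 5 Mb, the lists and the tests were chosen with earlier results of these data known. Genes were named by rule: all 9 members, called genes of the window, the 2 genes most like each tested member, Espl1, Cdc20 and Ccnb1, and up to 2 splicing factors. Nothing else was tested by list. Il12b is named besides as a gene beside Ublcp1, chosen after its values were seen. Alternatives were upper-quartile scaling, no filter on low counts, DESeq2 1.42.0, limma 3.58.1 (voom with sample weights), the compared groups alone, the replicate number (for LPS responses, the number within genotype) as a block, leaving out each library, and, added after seeing the data, leaving out both resting replicate 3 libraries of KO and 3′F. In simulated counts the fit recovered 82% of 100 genes changed 2-fold between resting KO and WT among 11357, and 77% after LPS. The changed genes were drawn only from those with a mean above 5 CPM, so these shares do not cover genes with lower counts. The simulation held no library that stood apart like resting KO replicate 3, so the resting share may not hold for the real group. The authors' other measurements were not used here.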

Additional observations from a re-analysis of the deposited data

How the results depend on the processing

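Each comparison was refitted under 6 other settings and without each library. The call of Ublcp1 as lower in resting KO than in WT held in upper-quartile scaling, without the low-count filter, in DESeq2, in limma-voom, under the replicate block and without any 1 library, and was lost in the fit of the compared groups alone. With upper-quartile scaling the median of all genes in the LPS responses was -0.12 in WT, -0.12 in KO and -0.15 in 3′F, beside 0.02, 0.02 and -0.01 with TMM.

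The share of all genes called moved with the counts of members and stands beside them. Members called in resting KO against WT numbered 1 (9.4% of all genes), and 2 with limma-voom (19.9%), 0 in the compared groups alone (3.35%) and 2 without both resting replicate 3 libraries (14.7%). After LPS they numbered 0 (4.79%), and 1 with upper-quartile scaling (5.19%), no filter (2.78%), DESeq2 (7.72%), the compared groups alone (9.16%) and the replicate block (5.1%), and 2 with limma-voom (15.6%). Against 3′F in resting cells they numbered 1 (12.9%), and 2 with limma-voom (25.7%), 0 in the compared groups alone (0.0881%), 2 without both libraries (6.56%) and 1 to 2 without each library (6.47% to 16%). Against 3′F after LPS they numbered 1 (3.88%), and 2 with limma-voom (16.2%) and in the compared groups alone (14.7%) and 0 without each library (1.25% to 2.75%). For LPS they numbered 1 in WT (28.5%), with 0 in upper-quartile scaling (30.5%) or no filter (13.8%), 4 with limma-voom (45.9%), 2 in the compared groups alone (31.6%) and 0 to 1 without each library (19.5% to 25.8%). In KO they numbered 1 (26.9%), with 5, or all tested, in limma-voom (53.5%), 2 in the compared groups alone (22.2%), 4 without both libraries (44.3%) and 1 to 4 without each (19% to 35.5%). In 3′F they numbered 0 (31.2%), with 1, Pwwp2a, in upper-quartile scaling (35.6%), 3 with limma-voom (48.2%), 2 without both libraries (35.2%) and 0 to 1 without each (22% to 31.7%). The counts in the 5 Mb window keep Timd4, which was tested because it was high in KO, and are a description only. In resting KO against WT 2 were called (9.4%), with 4 in limma-voom (19.9%), 1 in the compared groups alone (3.35%) and 1 to 3 without each library (3.53% to 9.22%). After LPS 4 were called (4.79%), with 2 to 3 without each (1.63% to 3.72%). Against 3′F in resting cells 3 were called (12.9%), with 1 without the filter (6.58%), 6 in limma-voom (25.7%) and 0 in the compared groups alone (0.0881%). There were 1 under the block (11.3%), 0 without both libraries (6.56%) and 1 to 3 without each (6.47% to 16%). Against 3′F after LPS 4 were called (3.88%), with 7 in limma-voom (16.2%) and 2 to 4 without each (1.25% to 2.75%). No further gene within 1 Mb was tested, so that a window of 1 Mb gave no value.

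Signs turned only for differences that were not called. With limma-voom these were Pwwp2a in resting KO against WT (0.105) and 3′F (0.0946), Ttc1 in resting KO against WT (0.0808) and in the 3′F LPS response (0.165), Ublcp1 in resting 3′F against WT (-0.00692), and the interactions of Pttg1 for KO (0.0759) and Ublcp1 for 3′F (0.0252). With upper-quartile scaling Slu7 turned in resting KO against WT (-0.00709), LPS KO against 3′F (-0.00393) and the WT LPS response (-0.00345), and Pttg1 in the KO LPS response (-0.0690), as it did with DESeq2 (-0.0153) and the compared groups alone (-0.00350). Without the filter Pwwp2a turned in resting 3′F against WT (-0.0183). Without both resting replicate 3 libraries Pwwp2a turned in resting KO against WT (0.0732) and 3′F (0.0981) and in resting 3′F against WT (-0.0248), Ttc1 in the 3′F LPS response (0.129), and the interactions of Pttg1 for KO (0.0639) and Ublcp1 for 3′F (0.0183). Leaving out each library, the resting KO to WT difference ran from -1.07 to 0.310 for Pttg1, -0.0118 to 0.135 for Slu7, -0.213 to 0.0488 for Pwwp2a and -0.126 to 0.216 for Ttc1. For 3′F against WT it ran from -0.0899 to 0.0293 (Slu7) and -0.107 to 0.108 (Pwwp2a) in resting cells, and after LPS from -0.268 to 0.207 (Pttg1), -0.0229 to 0.0610 (Slu7), -0.218 to 0.0119 (Pwwp2a) and -0.0472 to 0.153 (Ublcp1). For Pwwp2a in KO against 3′F it ran from -0.232 to 0.0276 in resting cells and -0.122 to 0.108 after LPS. The LPS response ran from -0.315 to 1.06 for Pttg1 in KO and -0.208 to 0.129 for Ttc1 in 3′F. The KO interaction ran from -1.27 to 0.103 (Pttg1), -0.0631 to 0.0833 (Slu7) and -0.159 to 0.103 (Pwwp2a), and the 3′F interaction from -0.0125 to 0.107 (Slu7), -0.242 to 0.0316 (Pwwp2a) and -0.193 to 0.0218 (Ublcp1). The causes were not tested.

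The block was the replicate number between genotypes, and the mouse (genotype and replicate number) for LPS responses and interactions. With 3 mice a genotype, resting and LPS libraries share mice, but the labels do not say that a number is a mouse. Deviations of resting and LPS libraries of a genotype with the same number correlated at 0.0283 to 0.318, and 15 of 18 libraries correlated best with their own number, a hint from the data. Between genotypes, libraries with the same number correlated at a median of 0.0116 (-0.287 to 0.396), beside -0.00408 with different numbers. For genotype comparisons the block therefore has no such hint. Under the replicate block Ublcp1 was called in LPS KO against WT (-0.61), and no other member call changed. Limits are 3 libraries a group, and a depth that leaves 72 to 496 counts for Pttg1 and Pwwp2a in a library.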
